A study of Mus musculus with 3 samples.

Results

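Droplet libraries of nuclei contain, beside the nuclei, a large number of barcodes that carry only a few transcripts. The barcodes described here are those with a total of 10 to 99 unique molecular identifiers (UMIs, the tags that mark single captured transcripts) in 3 single-nucleus libraries of mouse dorsal root ganglia (DRG). There were 628033 such barcodes among 7425421 barcodes in all. The adult library had 219344 of them, aged replicate 1 had 175627 and aged replicate 2 had 233062. They are called few-UMI barcodes below. Their UMIs were summed per library and set against the summed UMIs of the nuclei of the same library, taken as barcodes with more than 1000 detected genes, of which there were 11518, 5130 and 2611. The members were thus chosen by their UMI number alone, and no gene entered the choice.

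Isolation of nuclei breaks the plasma membrane, and cytoplasmic RNA is released into the suspension. A part of it can be captured together with a barcode that holds no nucleus. Mature messenger RNA, mitochondrial RNA and RNA of cells without a nucleus, such as erythrocytes, belong to the cytoplasm, whereas unspliced transcripts of long genes and several long noncoding RNAs such as Malat1 and Xist are retained in the nucleus. In the DRG, the sensory neurons have large cell bodies with abundant neurofilament, tubulin and neuropeptide mRNA, and they are wrapped by satellite glial cells (SGCs) and accompanied by Schwann cells, fibroblasts, vessels and macrophages.

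The libraries came from lumbar L3 to L5 DRG of C57BL/6 mice labelled male, 1 library from adult mice of 3 months and 2 libraries from aged mice of 21 months, with no treatment named in the labels. Ages are those of the sample labels, from which the design text of the series departs for the aged group. Frozen ganglia were homogenized, filtered and captured with template particles (PIP-seq), which does not sort for any cell type. The labels do not say how many mice a library holds, so p-values rest on the spread between libraries and not between mice. The variance of a gene was estimated partly from all genes, so a gene can pass although its own libraries differ widely. In the age tests the adult sum was taken to vary as the aged sums do. With 1 adult library, age cannot be told apart from other differences between that library and the aged libraries.

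The libraries held 167664164, 95647106 and 69045987 UMIs (adult, aged replicate 1 and aged replicate 2, the order used throughout). Few-UMI barcodes took 12333356, 11399757 and 14025199 of them, or 7.36%, 11.9% and 20.3%. At this depth, the 95% Wilson interval of a group's share of UMIs had a half-width of at most 5.53% of that share for groups with 1000 UMIs or more, and these intervals cover counting error only. The aged libraries shared barcodes: of the 5130 nuclei of aged replicate 1, 5064 had UMIs under the same barcode in aged replicate 2, and 1778 of these were few-UMI barcodes there (0.763% of its few-UMI barcodes and 0.343% of their UMIs). The UMIs under such a barcode in aged replicate 2 followed those in aged replicate 1, at 0.196% of their number (Pearson's r = 0.974 over 5130 barcodes, given as a description). Sharing with the adult library was rarer. Of adult nuclei 1.39% and 1.23% had UMIs in aged replicates 1 and 2, and 4.54% and 4.29% of the nuclei of these had UMIs in the adult library. The 3 comparisons across genes and 8 of the group shares were also computed without the barcodes that were nuclei in another library, and 12019 genes in place of 12018 differed between few-UMI barcodes and nuclei, 3372 in place of 3326 with age, and 486 in place of 495 in the comparison of the age differences. Xist, which is transcribed from the inactive X chromosome of females, was at 1414, 844 and 929 UMIs per 1000000 UMIs of the sum (CPM) in nuclei, and the Y-linked Ddx3y at 20.6, 13.2 and 7.87 CPM, so both were present in libraries labelled male. The methods of the study list the aged mice as female, against the label of these libraries, and the adult mice as of both sexes, while another passage of them names aged mice of both sexes.

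Few-UMI barcodes formed a peak of their own. The number of barcodes fell steeply from 1 UMI onward, rose again, and peaked at 97, 78 and 61 UMIs in the 3 libraries, which was 2.97%, 1.81% and 1.24% of the median nucleus (3269, 4317.5 and 4900 UMIs). The median few-UMI barcode held 62, 71 and 62 UMIs of 58, 65 and 57 genes. Barcodes with 50 to 99 UMIs made up 60.2%, 76.7% and 70.8% of them. In the adult library the peak lay at the upper limit of the window, and 235755 barcodes had 100 to under 300 UMIs there, against 130889 and 82708 in the aged libraries. At the limits of the window ribosomal protein mRNA was at 1.22%, 1.19% and 1.48% of UMIs in barcodes of 9 UMIs, at 1.20%, 1.19% and 1.49% at 10 UMIs, at 2.64%, 2.45% and 2.72% at 99 UMIs and at 2.61%, 2.44% and 2.67% at 100 UMIs. From 9 to 10 UMIs mitochondrially encoded mRNA went from 0.579%, 0.545% and 0.494% to 0.606%, 0.496% and 0.625%, and Malat1 from 4.07%, 3.15% and 2.06% to 4.09%, 2.88% and 1.99%.

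**Figure D1:**
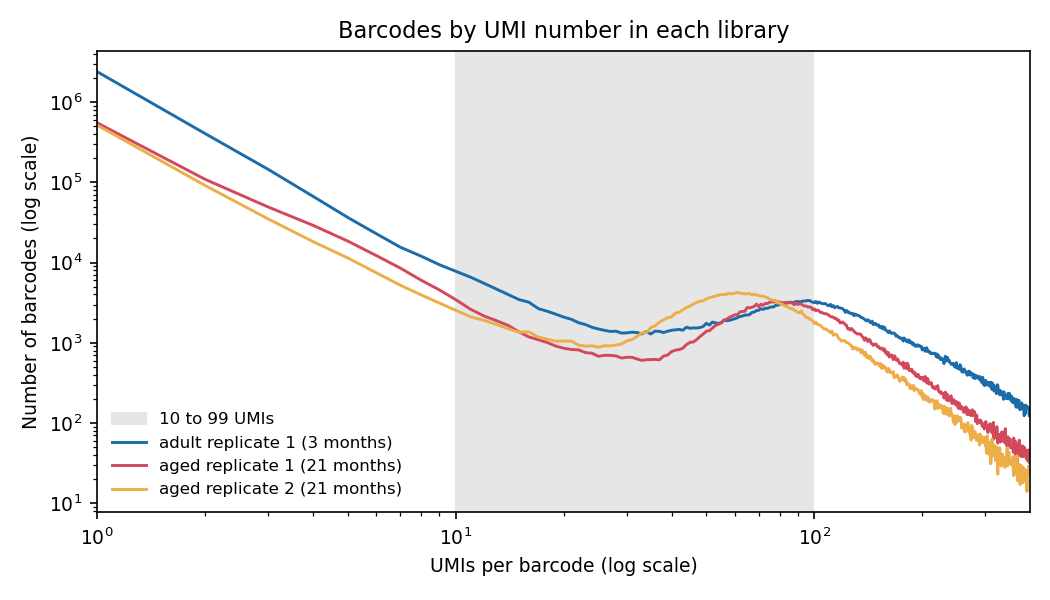
Number of barcodes (vertical axis, log scale) by UMIs per barcode (horizontal axis, log scale) in each library, with the window of 10 to 99 UMIs shaded. Each line is 1 library, and the peaks lie at 97, 78 and 61 UMIs (adult, aged 1, aged 2).

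The few-UMI barcodes of a library varied among themselves in their counts of several gene groups. For each barcode, the squared deviation of a group's count from that of draws from the pooled library was divided by the variance of such draws. The average over barcodes, called the variance ratio, would be about 1 if every barcode drew from the pooled composition. At the same relative variation it rises with a group's share of UMIs, so it does not rank groups of unlike share. This ratio was 1.13, 1.18 and 1.20 for the ribosomal protein mRNAs, 1.04, 1.08 and 1.11 for neuropeptide mRNAs and 1.05, 1.11 and 1.14 for fibroblast genes. It was 1.25, 1.19 and 1.17 for mitochondrially encoded mRNA and 1.19, 1.29 and 1.24 for the cytoskeletal genes. It was higher for Malat1 (1.59, 1.64 and 1.47), for long neuronal genes (1.42, 1.38 and 1.37) and, in the adult library alone, for peripheral myelin genes (1.499, against 1.15 and 1.16). Malat1 had 48, 66 and 64 UMIs in the single barcode with the most, and made up over 50% of the UMIs in 17, 49 and 39 barcodes. Haemoglobin mRNA, with a ratio of 1.21, 1.23 and 1.20, was seen in 10.6%, 17.2% and 8.57% of few-UMI barcodes, where draws from the pool would give 11.4%, 19.2% and 9.42%. Ribosomal protein mRNA was seen in 60.9%, 67.4% and 66.9% of barcodes, also fewer than the 67.0%, 72.1% and 71.8% of such draws.

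Composition changed along the UMI number within the window. From barcodes with 10 to 19 UMIs to those with 50 to 99 UMIs, the share of ribosomal protein mRNA rose from 1.33%, 1.43% and 1.54% to 2.51%, 2.26% and 2.37%. Malat1 fell by the same step from 4.04%, 2.53% and 2.16% to 2.33%, 1.36% and 1.24%, and the long neuronal genes from 3.38%, 3.05% and 3.11% to 2.25%, 1.97% and 1.91%. All 3 libraries showed these directions. Above the window the shares went on in the same direction up to 200 to under 300 UMIs, where ribosomal protein mRNA reached 3.80%, 3.31% and 3.21% and Malat1 1.86%, 1.04% and 0.928%. Nuclei lay below all of these bins for ribosomal protein mRNA, at 0.676%, 0.764% and 0.548%. Malat1 took 5.003%, 1.47% and 1.61% of UMIs in nuclei. The adult nuclei were thus above the adult bin of 10 to 19 UMIs. The aged nuclei lay between the aged bins of 10 to 19 and 50 to 99 UMIs. Long neuronal genes took 4.74%, 3.49% and 3.88% in nuclei, above the bin of 10 to 19 UMIs in each library.

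**Figure D2:**
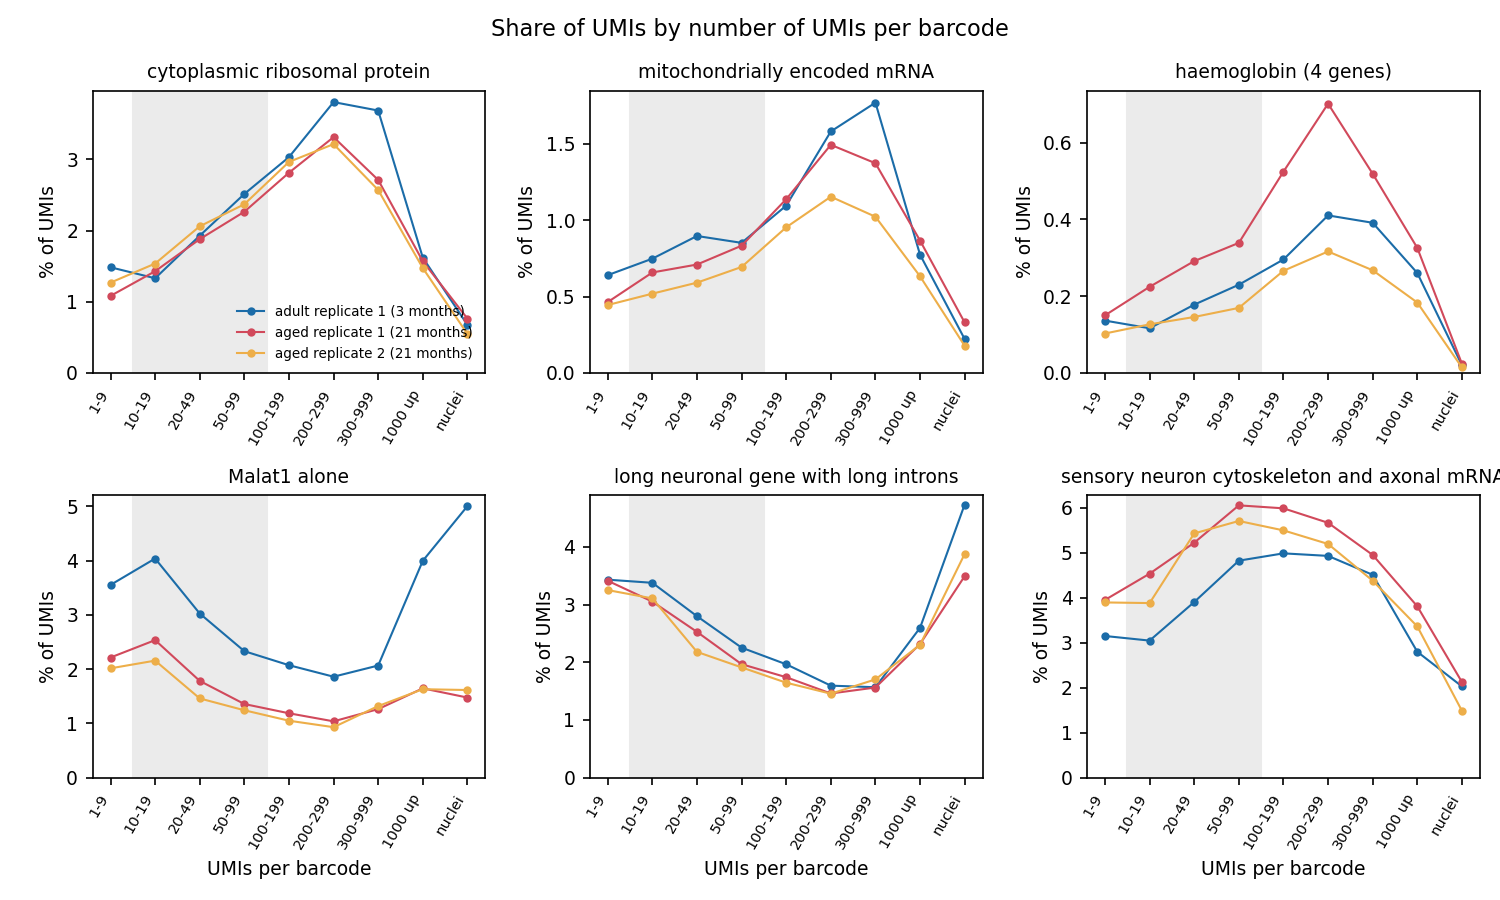
Share of UMIs (percent) of 6 gene groups by UMIs per barcode, 1 line per library. The shaded bins are the few-UMI barcodes, the bin of 1000 UMIs and more holds barcodes with 1000 genes or fewer, and nuclei stand last. From the bin of 10 to 19 UMIs to that of 200 to under 300 UMIs, ribosomal protein mRNA rose and Malat1 and long neuronal genes fell at each step in every library.

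The first comparison asked which transcripts were enriched in few-UMI barcodes and which in nuclei. Outside and inside nuclei stand for these barcode classes below. Whether few-UMI barcodes also hold RNA from nuclei, or nuclei free RNA, was not tested. The comparison was fitted with edgeR on 6 sums, 2 per library, with the library as a block, over 20195 genes. At a Benjamini-Hochberg adjusted p under 0.05, 5995 genes were higher in few-UMI barcodes (29.7% of genes tested) and 6023 in nuclei (29.8%), together 59.5%. Fold changes are given as log2 of few-UMI barcodes over nuclei, and their median over all genes was 0.00.

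Messenger RNA of mitochondria, ribosomes and the translation apparatus was higher in few-UMI barcodes almost throughout. All 13 mitochondrially encoded mRNAs were higher, with a median log2 ratio of 1.75. The most abundant, mt-Co3 (a subunit of cytochrome c oxidase), was at 2388, 2042 and 1777 CPM in few-UMI barcodes and at 565, 611 and 337 CPM in nuclei, a log2 ratio of 2.15 (SE 0.18, edgeR adjusted p = 2.76e-06). The groups did not overlap for mt-Co3. As a group, mitochondrially encoded mRNA took 0.853%, 0.821% and 0.677% of UMIs, against 0.222%, 0.331% and 0.178% in nuclei.

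Of 82 mRNAs of cytoplasmic ribosomal proteins, 82 were higher in few-UMI barcodes, with a median of 1.90. Rpl38, of the large subunit, was at 688, 614 and 615 CPM against 154, 157 and 101 CPM in nuclei (log2 ratio 2.33, SE 0.15, edgeR adjusted p = 6.62e-07). Nuclear-encoded subunits of the respiratory chain behaved likewise, with 75 of 76 higher and a median of 1.89, Ndufs4 not passing the test. Of 25 translation factors 24 were higher, with a median of 1.23, and Eif4e did not pass. Eef1a1, the elongation factor that brings aminoacyl tRNA to the ribosome, was at 478, 795 and 842 CPM outside and at 179, 337 and 244 CPM inside nuclei. Glycolytic enzymes (16 of 16, median 1.41) and proteins of the endoplasmic reticulum (23 of 23, median 1.19) were also all higher in few-UMI barcodes, and of the immediate early and heat shock genes 19 of 20 were, with a median of 1.00.

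Transcripts of the neuronal cytoskeleton and of neuropeptides were higher in few-UMI barcodes, the former at a large share of UMIs and the latter at a small one. The 40 cytoskeletal and axonal genes took 4.62%, 5.96% and 5.63% of UMIs there and 2.03%, 2.12% and 1.48% in nuclei. Of these, 37 were higher in few-UMI barcodes, with a median of 1.68. Map1b, a microtubule-associated protein, was second to Malat1 among all genes in few-UMI barcodes, at 5874, 11272 and 9758 CPM, against 4238, 4359 and 3022 CPM in nuclei. The ranges did not overlap, and the log2 ratio was 1.26 (SE 0.30, edgeR adjusted p = 0.00362), but Map1b did not pass the threshold with DESeq2 (1.29) or without aged replicate 2 (0.97). Nefl (neurofilament light chain, log2 ratio 1.94), Nefm (neurofilament medium chain, 2.05) and Tuba1a (alpha tubulin, 2.13) were each higher as well. Map2, a microtubule-associated protein of dendrites and cell bodies, was the 1 member of the list higher in nuclei, at 377, 380 and 322 CPM against 237, 231 and 193 CPM (log2 ratio -0.63, SE 0.12, edgeR adjusted p = 0.00056).

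All 12 neuropeptide precursors tested were higher in few-UMI barcodes, with a median of 1.90, and the list took 0.189%, 0.244% and 0.271% of UMIs there. Calca, which encodes the calcitonin gene-related peptide of peptidergic nociceptors, was at 1103, 1514 and 1637 CPM outside nuclei and at 455, 413 and 324 CPM inside (log2 ratio 1.91, SE 0.22, edgeR adjusted p = 1.92e-05). Its values in few-UMI barcodes were all above those in nuclei. Tac1, the precursor of substance P, had a log2 ratio of 1.55.

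Transcripts of blood cells were higher in few-UMI barcodes, the globin genes by far more than the other erythroid genes. Hbb-bs, a beta globin gene of erythrocytes, was at 1214, 1635 and 750 CPM in few-UMI barcodes and at 104, 108 and 59.4 CPM in nuclei, a log2 ratio of 3.79 (SE 0.17, edgeR adjusted p = 1.89e-07). Hbb-bt, Hba-a2 and Hba-a1 had log2 ratios of 3.59, 3.53 and 3.48. The 4 globin genes together were 10.7, 13.8 and 11.5 times as high in their share of UMIs outside as inside nuclei. Of 13 erythroid genes tested 10 were higher outside, and 3 did not pass, with a median of 1.09. Of 14 granulocyte genes 14 were higher, with a median of 2.64. S100a9, a calcium-binding protein abundant in neutrophils, was at 26.8, 98.5 and 270 CPM against 4.96, 8.04 and 15.2 CPM in nuclei (log2 ratio 3.53, SE 0.28, edgeR adjusted p = 1.49e-06).

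Markers of the resident non-neuronal cells were divided. Of all genes tested 29.7% were higher outside and 29.8% inside nuclei. Of 20 myeloid genes 19 were higher in few-UMI barcodes, with a median of 1.72, and Adgre1 did not pass. Of 20 SGC genes 12 were higher and 4 lower, with a median of 0.74. Apoe, an apolipoprotein, was at 1324, 1492 and 1177 CPM in few-UMI barcodes and at 344, 444 and 242 CPM in nuclei, whereas Cdh19, Fbln5, Ptprz1 and Lgr5 were the 4 higher in nuclei. Among 20 fibroblast and matrix genes 13 were higher outside, among them Apod and Dcn (log2 ratios of 2.32 and 1.93), and the basement membrane collagens Col4a1 and Col4a2 were higher in nuclei. Peripheral myelin genes were higher in 15 of 20 cases, with a median of 0.78. Cd9, a tetraspanin, was at 628, 914 and 928 CPM outside and at 251, 318 and 253 CPM inside nuclei (log2 ratio 1.65, SE 0.16, edgeR adjusted p = 6.2e-06). Of 20 endothelial and mural genes 8 were higher outside (40.0%) and 3, Flt1, Tek and Pdgfrb, inside (15.0%), with a median of 0.26. No member of these cell type lists was without a UMI in all 3 sums.

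**Figure D3:**
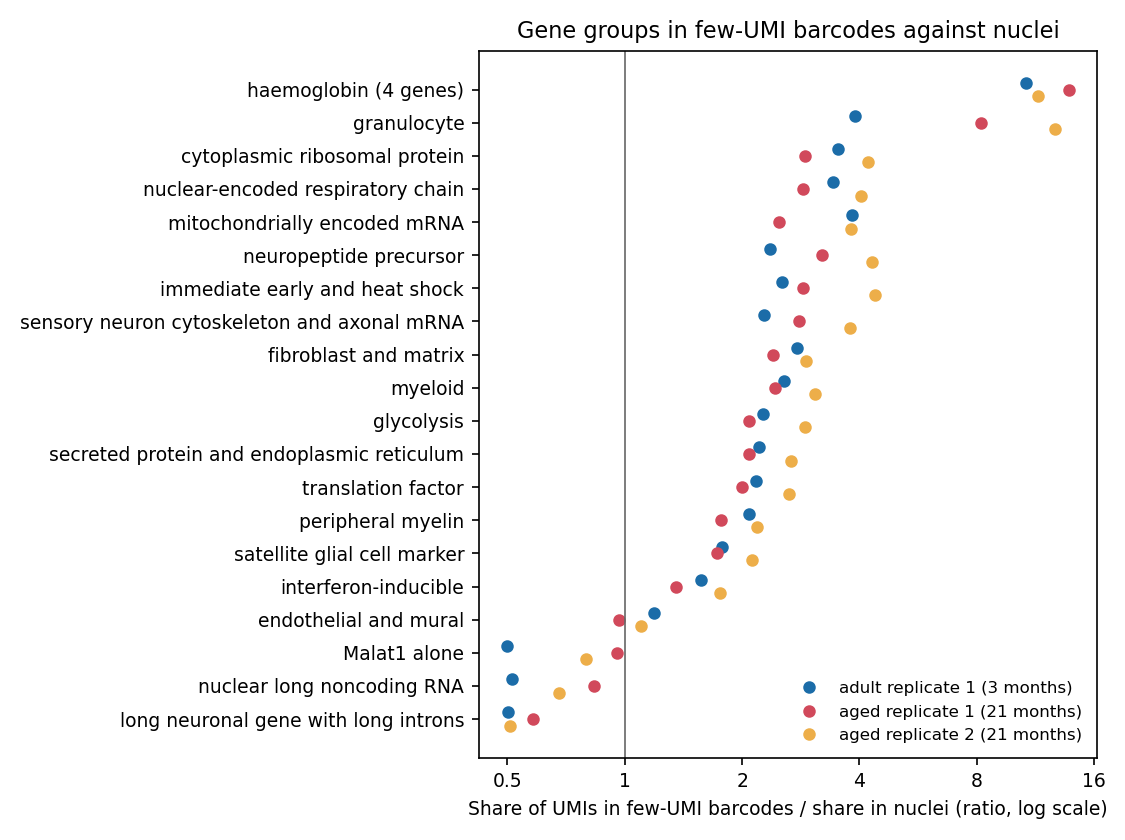
Share of UMIs in few-UMI barcodes divided by the share in nuclei of the same library (horizontal axis, log scale) for 20 gene groups, 1 point per library. The 4 globin genes lie between 10.7 and 13.8, and long neuronal genes between 0.501 and 0.581.

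RNA known to be retained in the nucleus was mostly lower outside it. Of 20 nuclear long noncoding RNAs 14 were higher in nuclei, with a median of -0.95. Xist was at 734, 406 and 364 CPM in few-UMI barcodes and at 1414, 844 and 929 CPM in nuclei (log2 ratio -1.04, SE 0.15, edgeR adjusted p = 8.72e-05). Peg13, Norad and Snhg1 were higher in few-UMI barcodes, with log2 ratios of 0.79, 0.31 and 0.55. Norad is a long noncoding RNA known from the cytoplasm. Malat1 (chr19:5795690-5802672 on GRCm38), the most abundant transcript of all sums, took 2.49%, 1.41% and 1.29% of UMIs in few-UMI barcodes and 5.003%, 1.47% and 1.61% in nuclei. It was lower outside in each library, but by very different factors, and the log2 ratio of -0.38 (SE 0.36) did not pass the test (edgeR adjusted p = 0.383).

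Long neuronal genes, whose transcripts are mostly intron, were also higher in nuclei. Of 40 such genes 37 were higher in nuclei, with a median of -0.85, while Rbfox3, Fgf14 and Erbb4 did not pass. Csmd1, a membrane protein with a very long gene, was at 3250, 2625 and 2554 CPM outside and at 7434, 4566 and 5282 CPM inside nuclei (log2 ratio -0.93, SE 0.23, edgeR adjusted p = 0.00371). Its groups did not overlap.

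The same order appeared over all protein-coding genes sorted by span, the distance from start to end of the gene. The 1634 genes of up to 5 kb had a median log2 ratio of 1.02, with 72.2% of them higher in few-UMI barcodes and 5.45% in nuclei. The 223 genes of over 500 kb had a median of -0.84, with 1.79% higher in few-UMI barcodes and 86.5% in nuclei. The medians in between fell with every step in span. Spearman's rho between span and fold change was -0.53 over 16253 genes, and -0.51, -0.53 and -0.56 in the single libraries. Over the same genes rho was -0.51 with intron bases and -0.45 with exon bases in place of span. These are descriptions across genes of the same libraries. The 357 genes with a single exon had a median of 0.78. Genes of up to 5 kb took 11.3%, 10.9% and 10.9% of UMIs in few-UMI barcodes and 3.91%, 4.32% and 3.18% in nuclei, whereas those of over 500 kb took 7.17%, 6.20% and 6.05% against 13.3%, 10.8% and 12.0%. Of 3876 long noncoding genes 498 (12.8%) were higher outside and 1146 (29.6%) inside nuclei, against 29.7% and 29.8% of all genes tested. They were thus called less often outside nuclei, and inside at the share of all genes.

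**Figure D4:**
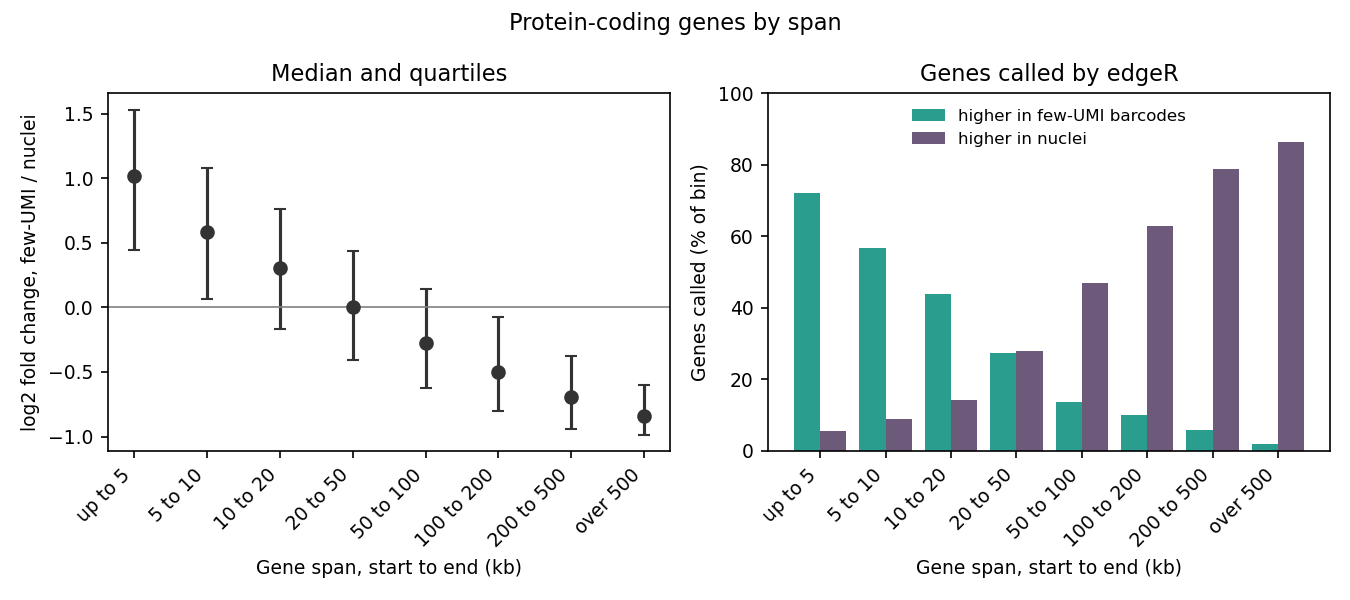
Protein-coding genes in 8 bins of gene span (kb). The left panel gives the median log2 ratio of few-UMI barcodes over nuclei with its quartiles as bars, from 1.02 at up to 5 kb to -0.84 over 500 kb, and the right panel the percent of genes called higher in either fraction.

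By size of the fold change, the leading genes in few-UMI barcodes were less well known. The 10 largest with at least 100 UMIs in every library were 1700016L21Rik, Gm26893, Gm33091, Gm26552 and Gm11149, all noncoding, followed by Hbb-bs, Hbb-bt, Hba-a2, S100a9 and S100a8. 1700016L21Rik, annotated as antisense, was at 165, 16.7 and 13.4 CPM in few-UMI barcodes and at 4.62, 0.95 and 0.32 CPM in nuclei, a log2 ratio of 4.93 (SE 0.18, edgeR adjusted p = 6.22e-08). Gm26893 was instead lowest in the adult library, at 16.5, 130 and 104 CPM against 1.07, 3.58 and 3.48 CPM (log2 ratio 4.84). The 10 were chosen among genes higher outside nuclei in every library, so that agreement is no result. The levels of 1700016L21Rik and Gm26893 differed in opposite directions between the adult and the aged libraries. Whether strand was used in counting is not stated, and reads of antisense genes cannot be told apart from those of the genes they overlap. In nuclei the 10 largest were Gm45823, Gm33474, 1700006F04Rik, Gm47950, Poteb, Gm12414, Pcdha7, Gm37814, Gm43581 and Gm26930, of which 4 besides Gm45823 are annotated as lying within an intron of another gene. Gm45823 was at 0.49, 0.35 and 0.71 CPM outside and at 2.64, 3.56 and 5.71 CPM inside nuclei (log2 ratio -2.83, SE 0.28, edgeR adjusted p = 7.95e-06).

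Among the 20 genes with the highest mean CPM in few-UMI barcodes, 17 were higher there than in nuclei, Csmd1 was higher in nuclei, and Malat1 and Meg3 did not pass the test. Of all genes tested 29.7% were higher in few-UMI barcodes. The ranking used the same few-UMI values as the test and so favours genes higher there. Besides the neuronal and heat shock genes the 20 included Cdh23, Cmss1, Camk1d and Gm36264. Cdh23, a cadherin of sensory hair cells, had a mean of 5177 CPM, and its log2 ratio of 0.78 (edgeR adjusted p = 0.0218) did not pass without either aged replicate, with nuclei of over 2000 genes or without the library block.

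The noncoding RNA Bc1 is shown with its sequence since it is a small cytoplasmic RNA of neurons, and since the assay captures transcripts by their adenine runs. Bc1 is transcribed by RNA polymerase III and is known to repress translation in dendrites. The annotated transcript (chr7:144914470-144914637 on GRCm38, plus strand, GENCODE M21) is given 5′ to 3′, with runs of 5 or more A in capitals.
Bc1: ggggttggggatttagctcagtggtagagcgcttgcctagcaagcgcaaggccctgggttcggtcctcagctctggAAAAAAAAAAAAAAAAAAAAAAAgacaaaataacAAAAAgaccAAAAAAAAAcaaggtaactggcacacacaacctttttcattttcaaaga
The transcript is 168 bases long, has 3 such runs, the longest of 23 A, and ends with 40 bases after the last of them. In few-UMI barcodes Bc1 was at 1257, 22.8 and 16.5 CPM and in nuclei at 585, 11.4 and 6.14 CPM. The fraction outside nuclei was the higher one in each library, by a log2 ratio of 1.23 (SE 0.14, edgeR adjusted p = 1.86e-05). Without the library block Bc1 did not pass (1.07, edgeR adjusted p = 0.681). Within the few-UMI barcodes of the adult library Bc1 had a variance ratio of 1.02 and a UMI in 6.53% of barcodes, against 6.76% from the pool.

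The second comparison asked how few-UMI barcodes of the aged libraries differed from those of the adult library. Fitted with edgeR on 3 sums over 19189 genes, it called 1615 genes higher (8.42% of genes tested) and 1711 lower in the aged libraries (8.92%), together 17.3%. With 1 residual degree of freedom the test rests on the spread between the aged libraries. Scaling by total count alone called 1025 and 1734 genes, which lowered the share of higher calls from 48.6% to 37.2% and gave a median of all genes of -0.07 in place of -0.01, and DESeq2 called 465 and 487. In bulk sums of this kind, fewer cells of a type and less RNA per cell cannot be told apart.

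Several myeloid genes were higher in the aged few-UMI barcodes. Of 20 myeloid genes 11 were higher and 9 did not pass, with a median log2 ratio of 0.88, against -0.01 for all genes. Lyz2, the lysozyme of macrophages and granulocytes, was at 24.8, 96.1 and 108 CPM (log2 ratio 2.10, SE 0.14, edgeR adjusted p = 4.41e-05). Both aged values lay far above the adult value, as they did in nuclei (4.96, 26.0 and 17.0 CPM). Lgals3, a galectin of macrophages, had a log2 ratio of 1.89 and Ctss, a cathepsin of antigen-presenting cells, 2.18. As a group, myeloid genes took 0.0351%, 0.0575% and 0.0666% of UMIs.

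Granulocyte genes had a higher median still. Of 15 granulocyte genes 10 were higher and 5 did not pass, with a median of 2.05, and their summed share was 0.00756%, 0.0223% and 0.0550%. S100a9 differed between the aged libraries (26.8, 98.5 and 270 CPM), so that its log2 ratio of 2.85 (SE 0.51, edgeR adjusted p = 0.00725) was 3.41 without aged replicate 1 and 1.93 without aged replicate 2. S100a8, at 14.8, 44.5 and 103 CPM, was likewise 2.88 and 1.64 in place of 2.39, Camp 3.24 and 1.85 in place of 2.71, and Ngp 2.81 and 1.33 in place of 2.26. Both aged libraries lay above the adult library for each of the 4. Globin genes showed no such order, with Hbb-bs highest in aged replicate 1 and lowest in aged replicate 2.

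Several immunoglobulin transcripts, abundant in plasma cells, were higher in the aged few-UMI barcodes. Igha, the constant region of IgA, was at 1.62, 69.3 and 107 CPM, a log2 ratio of 5.82 (SE 0.36, edgeR adjusted p = 2.41e-05). Igkc, the kappa light chain, was at 15.8, 109 and 160 CPM (3.16), and Jchain, which joins IgA and IgM subunits, at 1.30, 16.8 and 20.4 CPM (3.89). Of 18 lymphocyte and immunoglobulin genes 4 were higher (Ighm, Igkc, Iglc1 and Jchain) and 3 were lower, Cd4 and Cd79a among them. These were 22.2% and 16.7% of the list, against 8.42% and 8.92% of all genes tested.

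Genes of antigen presentation and the interferon response were higher in 9 of 18 and 17 of 35 cases, the others not passing, with medians of 0.66 and 0.81. The lists share members. B2m, the light chain of MHC class I, was at 162, 275 and 268 CPM (log2 ratio 0.81, SE 0.11, edgeR adjusted p = 0.00198), and H2-D1, a class I heavy chain, at 85.2, 150 and 177 CPM (1.00). The aged libraries were close to each other and above the adult library for both.

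Neuronal transcripts were divided by kind. Of 12 neuropeptide precursors 6 were higher in the aged libraries (Calca, Tac1, Adcyap1, Gal, Npy and Nts) and 6 did not pass, with a median of 0.56. Calca had a log2 ratio of 0.58 (SE 0.12, edgeR adjusted p = 0.0116). Npy, which sensory neurons are known to express after nerve injury, was at 0.49, 7.46 and 8.20 CPM, a log2 ratio of 4.04 (SE 0.44, edgeR adjusted p = 0.000701). Sprr1a, known from injured and regenerating sensory neurons, was at 0.24, 9.74 and 7.27 CPM (5.13). For Npy and Sprr1a the adult value, and with it the size of the ratio, rests on few UMIs in 1 library. Of 40 cytoskeletal and axonal genes 16 were higher, among them Map1b (log2 ratio 0.90), Nefh (neurofilament heavy chain, 0.98), Nefl (0.52) and Tuba1a (0.45), and Tmsb4x, Tmsb10 and Sncg were lower. Of 40 long neuronal genes 9 were lower and 31 did not pass, with a median of -0.26.

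Calls among housekeeping groups were uneven, and those of ribosomal protein mRNAs lay near the share of all genes (8.42% higher and 8.92% lower). Of 25 translation factors 14 were higher (56.0%) and 11 did not pass. The 82 ribosomal protein mRNAs gave 11 higher (13.4%) and 8 lower (9.76%), with a median of 0.01. Glycolytic enzymes were higher in 8 of 16 cases, led by Gapdh at 200, 387 and 486 CPM (log2 ratio 1.19, SE 0.15, edgeR adjusted p = 0.00146). Of 76 nuclear-encoded respiratory chain genes 5 were higher (6.58%) and 25 lower (32.9%), with a median of -0.09. Of the mitochondrially encoded mRNAs mt-Nd4l, mt-Co1 and mt-Co2 were higher and mt-Nd1 and mt-Nd3 lower. Of 20 nuclear long noncoding RNAs 8 were lower and Norad was higher, and Malat1 itself was lower by a log2 ratio of -0.83 (SE 0.14, edgeR adjusted p = 0.00515).

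Most of the listed transcripts of skeletal muscle were lower in the aged few-UMI barcodes. Of 20 muscle genes 13 were lower and 7 did not pass, with a median of -1.48, and their summed share was 0.0322%, 0.0128% and 0.0119%. Ttn, the giant sarcomere protein titin, was at 40.1, 11.2 and 12.6 CPM (log2 ratio -1.69, SE 0.16, edgeR adjusted p = 0.000308), and Ckm, muscle creatine kinase, at 10.6, 0.88 and 0.71 CPM (-3.67). In nuclei the same genes were at 27.3, 4.96 and 6.17 CPM and at 1.47, 0.36 and 0.50 CPM, also lower in both aged libraries. Of 20 fibroblast and matrix genes 9 were lower and 2 higher (Apod and Serping1). Of 20 myelin genes 2 were higher (Cd9 and Gldn), 1 was lower and 17 did not pass. Of 20 SGC genes 3 were lower (Fabp7, a fatty acid binding protein, Lgr5 and Dbi), 2 were higher (Aldoc and Hmgcs1) and 15 did not pass. In both lists 10.0% of members were higher, against 8.42% of all genes, and 5.0% and 15.0% were lower, against 8.92%.

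**Figure D5:**
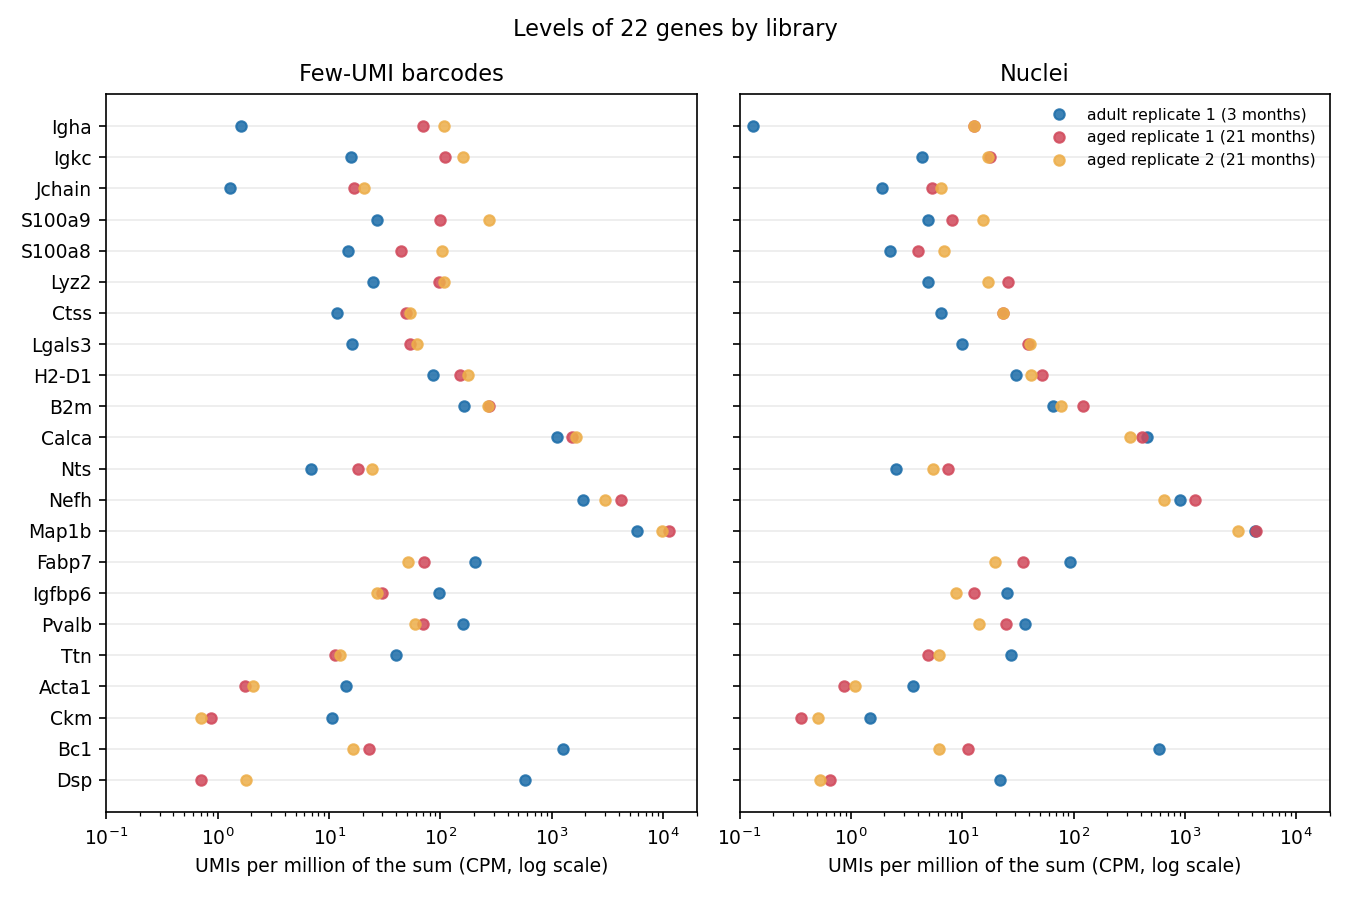
Level of 22 genes (CPM, log scale) in the few-UMI barcodes (left) and in the nuclei (right), 1 point per library. In few-UMI barcodes Igha was at 1.62, 69.3 and 107 CPM, while Dsp was at 577, 0.70 and 1.78 CPM.

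A small set of genes differed between the adult library and the aged libraries by very large factors. With an absolute log2 ratio over 4, and at least 100 UMIs in the adult sum for lower genes or in each aged sum for higher genes, 24 genes were lower and 6 higher in the aged few-UMI barcodes. In nuclei 23 of the 24 lower and 6 of the 6 higher genes differed in the same direction. These nuclei come from the same libraries, so they are no independent check, and the share over all genes was not computed. Some nuclear values were also near 0, such as those of Olfr1157 (0.51, 0 and 0.03 CPM). Of the 24, 12 are protein-coding. Bc1 was among them, with a log2 ratio of -5.95 (SE 0.16, edgeR adjusted p = 1.3e-07). Dsp, which encodes the desmosomal protein desmoplakin (chr13:38151294-38198577 on GRCm38), had 7113, 8 and 25 UMIs, 444 times as many per UMI of the sum in the adult as in the pooled aged sums (95% interval from counting, 316 to 646). The fitted log2 ratio of -8.73 was -8.25 without aged replicate 1 and -9.61 without aged replicate 2, so the pooled value depends on which aged library is used. Of 14 epidermal and desmosomal genes tested 4 were lower (Dsp, Pkp3, Flg2 and Sfn), Jup was higher and 9 did not pass, with a median of -0.68. Lower calls were 28.6% and higher calls 7.14% of the list, against 8.92% and 8.42% of all genes tested. Flg2 was at 18.8, 6.84 and 8.91 CPM and Jup, of desmosomes and adherens junctions, at 109, 155 and 168 CPM.

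Among genes with at least 100 UMIs in the adult sum, the 8 with the largest decrease were Kif12, Gm26560, Tbpl2, Dsp, Gm47854, Gm49615, Olfr1157 and Cyp2d9. Kif12, a kinesin motor, had 1019, 0 and 0 UMIs, hence at least 700-fold lower, with 3 UMIs over both aged sums as the floor. Gm26560 had 323 UMIs and 0 in both, at least 222-fold lower on the same floor. Tbpl2, a TATA-binding protein homologue of oocytes, had 454, 0 and 1 UMIs, a ratio of 936 (167 to 37047), and the olfactory receptor Olfr1157 153, 2 and 0 UMIs, a ratio of 158 (42.9 to 1314).

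Within the adult few-UMI barcodes the set did not share 1 pattern. Dsp was highest in barcodes with few UMIs, at 0.104% of UMIs in those with 10 to 19 and 0.0534% in those with 50 to 99, and stood at 0.00217% in nuclei. Bc1 went the other way, from 0.0726% to 0.129%, with 0.0585% in nuclei. Dsp had at most 3 UMIs in any barcode and Bc1 at most 9.

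Among genes with at least 100 UMIs in each aged sum, the 8 with the largest increase were Gm10801, Igha, Sprr1a, Lmx1a, Olfr1062, Gm47360, Jchain and Ccnb1ip1. Gm10801 was at 0.24, 16.7 and 57.2 CPM, the adult value resting on few UMIs. Its log2 ratio of 7.26 was 7.90 without aged replicate 1 and 6.09 without aged replicate 2. Lmx1a, a homeobox transcription factor, was at 4.95, 107 and 88.6 CPM, and the olfactory receptor Olfr1062 at 6.08, 131 and 104 CPM. In nuclei these were at 1.19, 4.60 and 4.46 CPM and at 0.30, 4.17 and 4.49 CPM.

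The third comparison asked whether the age difference in few-UMI barcodes differed from that in nuclei. The interaction of age with fraction, fitted with edgeR on the 6 sums with the library as a block, passed the test for 495 of 20195 genes (2.45%), with the age difference more positive outside nuclei for 204 (1.01%) and more negative for 291 (1.44%). Higher calls were thus 41.2% of all, but 18.7% under scaling by total count alone, which gave a median of all genes of -0.20 in place of -0.01, and 56.0% with DESeq2. The median interaction was -0.01. DESeq2 kept 80 of the 495 calls and gave no adjusted p for 3133 of the genes tested.

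Several granulocyte and immunoglobulin transcripts had, by the edgeR test, a more positive age difference outside nuclei than inside. Of 14 granulocyte genes 7 passed in this direction (S100a8, S100a9, Camp, Ngp, Ltf, Mmp9 and Cxcr2) and 7 did not pass, with a median of 1.61. Of the lymphocyte list Ighm, Igkc, Iglc1 and Jchain passed in the same direction, whereas Igha, which is in no list, had an interaction of -0.63 (SE 0.54) and did not pass (edgeR adjusted p = 0.762). Of the neuropeptides Adcyap1, Gal and Cartpt passed, with a median of 0.83 over 12 genes. The mitochondrially encoded mt-Nd5, mt-Nd6 and mt-Atp8 passed in the negative direction. The lists of ribosomal protein, respiratory chain, interferon and MHC genes had medians of 0.20, 0.22, 0.02 and 0.07.

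The age difference of Bc1 in few-UMI barcodes was not shown to differ from that in nuclei (interaction 0.28, SE 0.31, edgeR adjusted p = 0.839), nor was that of Malat1 (0.99, SE 0.58, edgeR adjusted p = 0.565), which did pass with DESeq2. Dsp fell more outside nuclei than inside, by an interaction of -3.49 (SE 0.43, edgeR adjusted p = 2.45e-13). With DESeq2 the interaction was -3.59 and the call was lost. The interaction was -2.85 without aged replicate 1 and -4.42 without aged replicate 2. In nuclei Dsp was at 21.7, 0.64 and 0.53 CPM, against 577, 0.70 and 1.78 CPM outside.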

How the data were processed

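The authors deposited raw UMI counts (genes by barcodes), obtained with Pipseeker on genome build mm10 per the submitters' processing notes; the annotation and use of strand are not given in the sources used here. UMIs were summed per library over barcodes of 10 to 99 UMIs and over barcodes with more than 1000 genes. Sums were tested with edgeR 4.0.16 (quasi-likelihood, TMM, filterByExpr, prior count 0.125, Benjamini-Hochberg threshold 0.05, R 4.3.3). The comparison with nuclei and the interaction with age had the library as a block, since both sums of a library come from the same suspension. CPM are UMIs per 1000000 UMIs of a sum. Scripts were tested on simulated data. An exact permutation test cannot go below p = 0.25 for 3 libraries, or 0.333 for 1 adult against 2 aged libraries. Genes were matched to GENCODE M21 by Ensembl ID (32098 of 32227). No doublets were called, and no cells were clustered.

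Members and gene lists were chosen with earlier results of these data known. Named were the leading genes by fold change with at least 100 UMIs in each library on the higher side, or over both fractions for the interaction (10 each way against nuclei, 8 with age, 4 for the interaction), the 4 most abundant members of each list, Malat1, Bc1, Dsp, the 13 mitochondrial mRNAs and the 20 most abundant genes. Leading genes against nuclei also had to differ in the same direction in all 3 libraries. With age, both aged libraries had to lie on the same side of the adult library. Other genes, such as Map2, Norad, Npy, Ckm, Jup, Ctss and Fabp7, were chosen after their values were seen. Alternatives were other scaling, DESeq2 1.42.0, other filters, UMI windows and nucleus thresholds, no block and leaving out each library. Some items are not reported here.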

Additional observations from a re-analysis of the deposited data

Results flagged for a closer look

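The age difference differed between few-UMI barcodes and nuclei for 495 genes by the edgeR interaction test, and the genes named for it are given as values (few-UMI barcodes, then nuclei, in CPM for the adult library and aged replicates 1 and 2). A more positive age difference in few-UMI barcodes was found for Gm48653 (0.16, 0.70 and 3.14, then 1.82, 2.38 and 2.79), with an interaction of 3.17. Its adult few-UMI value rests on few UMIs, and its aged few-UMI values were far apart. Ano2, a calcium-activated chloride channel, had 3.14 (5.51, 225 and 2.42, then 3.26, 6.71 and 2.42) and Gm26873 had 3.00 (1.38, 33.3 and 0.86, then 3.86, 5.48 and 3.56). Both were high in the few-UMI barcodes of aged replicate 1 alone and still passed the edgeR test. Without that library the interactions were -0.62 and -0.43. With DESeq2 they were 1.96 each and did not pass, and Gm48653 and Dsp did not pass either. Gm14216 had 2.95 (20.7, 8.77 and 7.42, then 5.84, 0.39 and 0.27).

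A more negative age difference in few-UMI barcodes was found for Dnah7c, a dynein heavy chain gene, with -3.67 (263, 12.0 and 11.7, then 17.9, 12.4 and 10.9), for Gm43122 with -3.56 (34.9, 1.58 and 2.00, then 2.98, 1.58 and 2.52), for Dnhd1 with -3.18 (71.5, 7.63 and 7.42, then 20.1, 19.6 and 23.8), for Tmem273 with -2.88 (11.5, 2.98 and 4.71, then 1.16, 2.94 and 3.53) and for Dsp with -3.49. The adult side of each rests on 1 library.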

How the results depend on the processing

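Against nuclei, 6989 genes (3413 higher outside, 3576 inside) were called with the window of 10 to 49 UMIs and 8588 (4162 and 4426) without the replicate block. No paired analysis was made for the age comparison, since the labels name no pairs of adult and aged libraries. For age, total count called 1025 genes higher in the aged libraries, DESeq2 952 (465 and 487), no filter 2643 higher and the window of 10 to 49 UMIs 994 (385 and 609). For the interaction, total count called 603 more negative, DESeq2 84 (47 and 37), the window of 10 to 49 UMIs 95 (43 and 52) and nuclei of over 2000 genes 867 (603 more negative). Leaving out 1 library gave 9695 to 12409 calls against nuclei. The interaction ranged from -0.62 to 4.50 for Ano2 and from -0.43 to 4.28 for Gm26873, and was -0.33 for Bc1 in the window of 10 to 49 UMIs. The cause was not tested.

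The mean log2 ratio of shares moved, in the window of 10 to 49 UMIs, to 1.49 for ribosomal, 1.45 for respiratory, -0.62 for long neuronal, -0.23 for nuclear noncoding and 2.78 for erythroid genes. In the window of 100 to under 300 UMIs, added after seeing the data, it was 2.29 for mitochondrial, 2.23 for ribosomal, -1.23 for long neuronal, 3.76 for erythroid and 1.24 for myelin genes. With nuclei of over 500 genes it was 2.50 for erythroid genes, and with over 2000 genes 3.58 for erythroid and 1.36 for myelin genes.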
